A study of Mus musculus with 12 samples.

Results

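Spleen CD8 T cells labelled Trmt61A cKO (conditional knockout) were compared with WT (wild type) cells at 0 h, the first of 2 time points. The members were 3 libraries labelled cKO and 3 labelled WT, which are 6 of the 12 libraries of the series, taken by their genotype and time labels. All came from C57BL/6 mice and were made from total RNA of primary CD8 T cells. The labels do not give the Cre line, the sex or age of the mice, or whether each library came from a separate mouse, so p-values here reflect how these libraries scatter, which may be technical in part. The other 6 libraries, 3 labelled cKO and 3 labelled WT at 48 h, entered the shared estimate of that spread but not the 0 h fold changes.

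TRMT61A is the catalytic subunit of the methyltransferase that, with TRMT6, places N1-methyladenosine (m1A) in the T-loop of tRNAs, a mark known to stabilise the folded tRNA. Spleen CD8 T cells that have not met antigen are small and make little protein, and they raise translation when their antigen receptor is engaged. The 0 h comparison therefore asks which messenger RNAs differed between the genotypes at the first time point of the series.

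Total counts ran from 34341847 to 37530701 per library at 0 h, and the median absolute log2 difference over tested genes between any 2 of these libraries lay between 0.137 and 0.203. The 9 marker genes of CD8 T cells, Cd3e and Cd8a among them, were all detected and summed to 7032, 7326 and 7375 CPM (counts scaled to library size with TMM factors) in cKO and 6668, 7188 and 7071 CPM in WT. Several libraries stood apart. The library labelled cKO replicate 1 held Trmt61a at the WT level, so called genes and gene lists are given with the groups as labelled and again without both libraries of that label, and directions as labelled rest on that label. WT replicate 3 had almost no Y-linked transcript, with 0.0549 CPM summed over 4 genes, against 325.4 to 376.4 CPM in each of the other 5 libraries. Transcripts of 20 digestive enzymes and cofactors of the exocrine pancreas, a list chosen after their values were seen, summed to 116, 2.57 and 1.79 CPM in cKO and 2.89, 50.5 and 201.4 CPM in WT. They included Pnlip, the pancreatic lipase, at 13.9, 0 and 0 CPM in cKO and 0, 5.89 and 28.7 CPM in WT. cKO replicate 1, WT replicate 2 and WT replicate 3 thus carried this RNA, and at 48 h the 6 libraries summed to between 2.07 and 3.41 CPM.

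Trmt61a, the targeted gene, was present at 28.1, 0.807 and 1.88 CPM in the libraries labelled cKO, against 27.4, 29.8 and 26.3 CPM in WT. cKO replicates 2 and 3 lay far below every WT library, and the library labelled cKO replicate 1 lay inside the WT range. The log2 fold change was -1.44 ± 1.14 (standard error) with the groups as labelled (edgeR adjusted p = 0.726). Without cKO replicate 1 it was -4.38 ± 0.24 (edgeR adjusted p = 1.54e-06). That library was set aside for its Trmt61a level, so this second value was set in advance and tests nothing. Trmt6, the partner subunit that helps bind the tRNA, had 52.4, 46.8 and 46.8 CPM in cKO and 51.2, 50.6 and 43.5 CPM in WT, and its groups overlapped. Of the 12 genes for writers, erasers and readers of m1A, Trmt61a was the 1 called, and only without cKO replicate 1. In that fit 0.0564 percent of all tested genes were called lower. Alkbh3, a demethylase of the mark, had 35.7, 32.8 and 34.4 CPM in cKO and 28.9, 33.2 and 24.3 CPM in WT, a log2 fold change of 0.25 ± 0.11 that did not pass (edgeR adjusted p = 0.515). Ythdf1, a reader of methylated adenosine, had 80.1, 72.9 and 85 CPM in cKO and 101.7, 86 and 96.2 CPM in WT, lower in every cKO library but not called (log2 fold change -0.25 ± 0.09, edgeR adjusted p = 0.445).

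At 0 h none of the tested genes that flank Trmt61a in the mouse annotation was called by edgeR. Without cKO replicate 1, the log2 fold changes of the 10 nearest tested genes on each side ran from -0.60 to 0.83, and 0 of the 20 were called. Zfyve21, which encodes a FYVE domain protein, stood at 0.83 ± 0.31 and Ppp1r13b, a binding partner of p53, at -0.28 ± 0.09, the 2 of the 20 with an unadjusted p under 0.05. The immediate neighbours Ckb, the brain-type creatine kinase, and Bag5, a co-chaperone, stood at -0.09 and -0.01 at 0 h. At 48 h Ckb was low where Trmt61a was, with 8.85, 0.956 and 0.681 CPM in cKO and 8.84, 8.63 and 9.49 CPM in WT (log2 fold change -3.45 ± 0.30 without cKO replicate 1, edgeR adjusted p = 5.07e-05).

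Few genes passed the test at 0 h. As labelled, edgeR called 1 of 12404 genes higher in cKO at an adjusted p under 0.05, or 0.00806 percent, and 0 lower. At an unadjusted p under 0.05, 533 genes (4.3 percent) were higher and 630 (5.08 percent) lower, by edgeR. Every cKO library lay above every WT library for 908 genes (7.32 percent), and below every one for 912 (7.35 percent). The count depended on the tool, at 22 higher and 18 lower with DESeq2 and none with limma-voom. Without cKO replicate 1 edgeR called 12 higher (0.0967 percent) and 7 lower (0.0564 percent), and 5.74 and 6.47 percent had an unadjusted p under 0.05 in the same directions. Groups did not overlap for 13.5 percent (higher) and 13.9 percent (lower). Leaving out only the 0 h library of that label gave 4 higher and 0 lower.

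**Figure D1:**
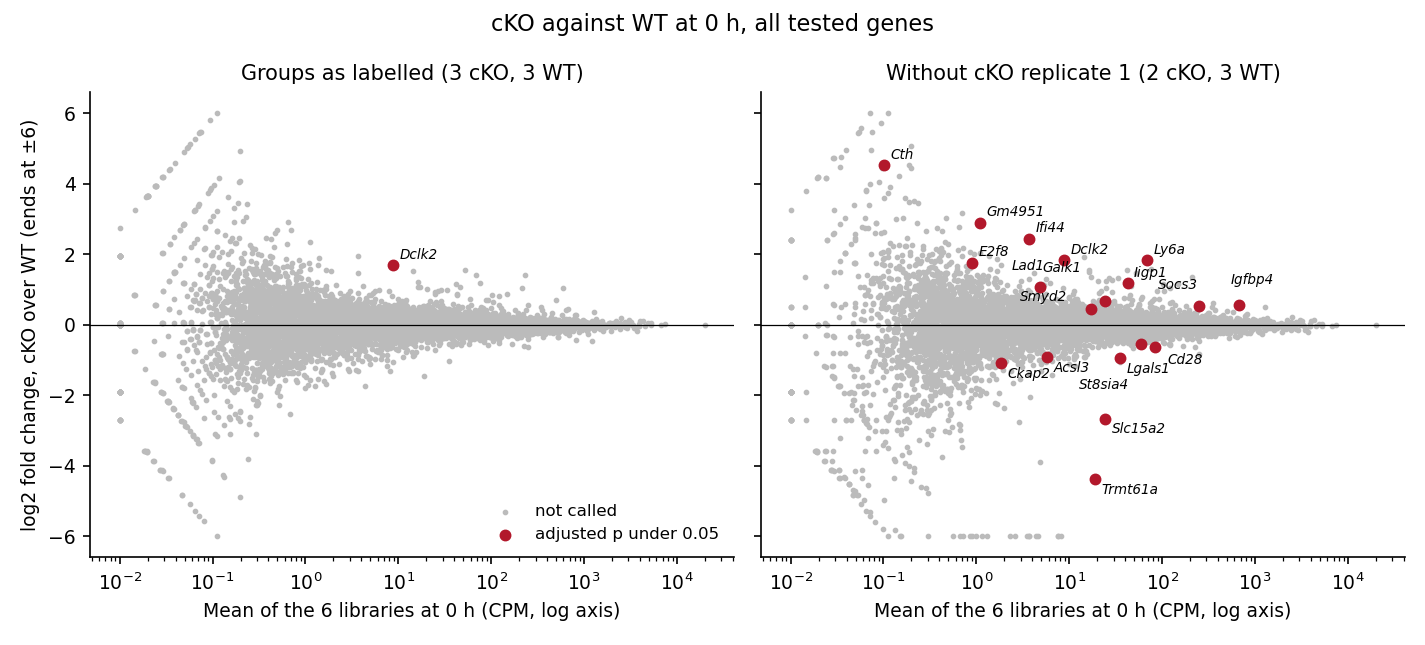
Each point is 1 of the 12404 tested genes, with its mean CPM over the 6 libraries at 0 h on a log axis and its log2 fold change of cKO over WT on the vertical axis, with the groups as labelled on the left and without cKO replicate 1 on the right; points beyond 6 are drawn at the edge. Red points have an edgeR adjusted p under 0.05, 1 gene on the left and 19 on the right.

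The gene called with the groups as labelled was Dclk2, a kinase that binds microtubules. It had 10.5, 17.3 and 12.5 CPM in cKO, against 4.67, 3.81 and 4.09 CPM in WT. The 3 cKO libraries, cKO replicate 1 included, lay above all 3 WT libraries. The log2 fold change was 1.68 ± 0.22 (edgeR adjusted p = 0.0211), and 1.83 ± 0.19 without cKO replicate 1 (edgeR adjusted p = 0.000881). The call was lost without cKO replicate 2 (edgeR adjusted p = 0.114), without cKO replicate 3 (adjusted p = 0.0678) and without WT replicate 3 (adjusted p = 0.124) at 0 h.

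With the 0 h and 48 h libraries of the label cKO replicate 1 both left out, 11 more genes were called higher in cKO, and 7 lower. With only the 0 h library of that label left out, edgeR called 4 of these 19 genes, Dclk2, Lad1, E2f8 and Gm4951, and the adjusted p of Trmt61a was 0.302. Gm4951 had 2.57 and 2.81 CPM in cKO replicates 2 and 3 and 0.526, 0.282 and 0.275 CPM in WT, log2 fold change 2.89 ± 0.28 (edgeR adjusted p = 0.000837). The library labelled cKO replicate 1, at 0.179 CPM, lay below the WT libraries. Ifi44, an interferon-induced gene, had 5.42 and 11.1 CPM in cKO replicates 2 and 3 and 1.34, 2.06 and 1.15 CPM in WT (log2 fold change 2.44 ± 0.42, edgeR adjusted p = 0.0478). Ly6a, which encodes the surface antigen Sca-1, had 87 and 182.6 CPM in cKO replicates 2 and 3 and 30.5, 53.5 and 29.8 CPM in WT (1.83 ± 0.28, edgeR adjusted p = 0.0289). Iigp1, an immunity-related GTPase, had 54.2 and 83.1 CPM in cKO replicates 2 and 3 and 22.6, 41 and 27 CPM in WT (1.18 ± 0.21, edgeR adjusted p = 0.0495). In the library labelled cKO replicate 1 these 3 genes had 1.2, 32 and 28.2 CPM, values inside the WT range.

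Socs3, a feedback inhibitor of cytokine receptor signalling, had 308, 312.8 and 277.8 CPM in the 3 cKO libraries and 223, 197.1 and 189.9 CPM in WT. All cKO libraries lay above all WT libraries, and the log2 fold change was 0.56 ± 0.09 as labelled (edgeR adjusted p = 0.0626) and 0.54 ± 0.08 without cKO replicate 1 (adjusted p = 0.0291). Galk1, galactokinase, had 25.8, 32.6 and 28.3 CPM in cKO and 18.2, 21.9 and 17.5 CPM in WT (0.67 ± 0.11 without cKO replicate 1, edgeR adjusted p = 0.0375). Igfbp4, which binds insulin-like growth factors and is made by naive T cells, had 636.6, 925.5 and 776.3 CPM in cKO and 538.6, 570.6 and 620.7 CPM in WT, with cKO replicate 1 just above the highest WT library (0.56 ± 0.08 without it, edgeR adjusted p = 0.0244). Smyd2, a lysine methyltransferase, had 17.3, 20.6 and 20.2 CPM in cKO and 14.8, 15.5 and 14.7 CPM in WT (0.44 ± 0.08, edgeR adjusted p = 0.0478). Lad1, the filament protein ladinin, had 4.22, 7.5 and 7.14 CPM in cKO and 3.13, 3.21 and 4.12 CPM in WT (1.07 ± 0.13, edgeR adjusted p = 0.00513). The 3 cKO libraries lay above WT for Galk1, Igfbp4, Smyd2 and Lad1 as well.

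E2f8 and Cth were called at low levels. E2f8, an atypical E2F repressor, had 0.389, 1.87 and 1.58 CPM in cKO and 0.555, 0.366 and 0.604 CPM in WT (1.76 ± 0.20 without cKO replicate 1, edgeR adjusted p = 0.00266). cKO replicates 2 and 3 were above WT and cKO replicate 1 was not. Cth, cystathionine gamma-lyase, which makes cysteine, had 0, 10 and 10 counts in cKO and 0, 1 and 0 counts in WT. The ratio of cKO replicates 2 and 3 to WT, scaled by library size, was 31.1, with an exact 95 percent interval of 4.98 to 1291 that covers counting error only, and the edgeR adjusted p was 0.0471. At 48 h the same gene had 246, 2085 and 2198 counts in cKO and 335, 495 and 419 in WT. At 0 h only cKO replicates 2 and 3 reached 10 counts, too few libraries for the filter. Cth was thus tested because of its 48 h counts, which also entered the estimate of its spread.

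Besides Trmt61a, 6 genes were called lower without cKO replicate 1. Slc15a2, a peptide transporter, had 46.2, 4.33 and 5.26 CPM in cKO and 20.9, 32.6 and 38 CPM in WT. cKO replicates 2 and 3 lay far below WT and cKO replicate 1 above it. The log2 fold change was -2.67 ± 0.31 without cKO replicate 1 (edgeR adjusted p = 0.00266) and -0.72 ± 0.83 as labelled (adjusted p = 0.826). Lgals1, galectin-1, had 43, 21.3 and 22 CPM in cKO and 37.4, 34.8 and 53.4 CPM in WT, with cKO replicate 1 inside the WT range (-0.95 ± 0.16 without it, edgeR adjusted p = 0.044). Cd28, the costimulatory receptor of T cells, had 81, 58.9 and 67.8 CPM in cKO and 108.1, 93.8 and 91.7 CPM in WT. All 3 cKO libraries were below WT (-0.63 ± 0.10 without cKO replicate 1, edgeR adjusted p = 0.0422, and -0.50 ± 0.11 as labelled, adjusted p = 0.247). St8sia4, a polysialyltransferase, had 58.7, 45.9 and 47.7 CPM in cKO and 72.7, 64.8 and 66.1 CPM in WT (edgeR adjusted p = 0.0312 without cKO replicate 1). Acsl3, a long-chain acyl-CoA synthetase, had 5.65, 3.84 and 3.79 CPM in cKO and 8.73, 6.6 and 6.37 CPM in WT (edgeR adjusted p = 0.0495). Ckap2, a spindle protein, had 1.17, 1.01 and 1.34 CPM in cKO and 2.75, 2.2 and 2.61 CPM in WT (edgeR adjusted p = 0.0358). The groups did not overlap for these last 3 genes.

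**Figure D2:**
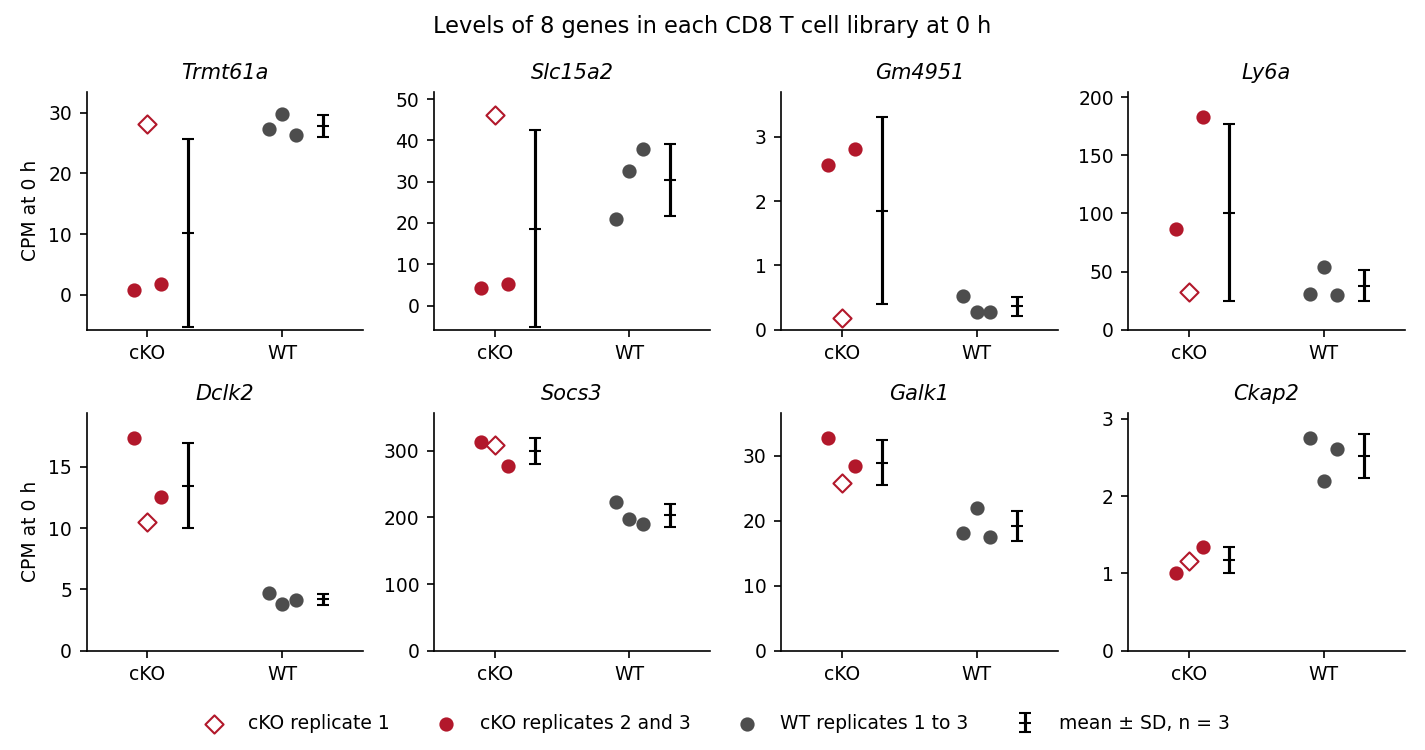
CPM at 0 h of 8 genes in each library, with cKO on the left (the library labelled cKO replicate 1 as an open diamond, replicates 2 and 3 as filled red points) and WT on the right in grey; bars give the mean and standard deviation of the 3 libraries. In the upper row cKO replicate 1 lies with WT or beyond it, as for Slc15a2 at 46.2 CPM, and in the lower row it lies with cKO replicates 2 and 3, as for Dclk2 at 10.5 CPM.

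The 10 genes with the smallest unadjusted p in each direction as labelled, among those at 5 CPM or more, included Dclk2, Socs3, Galk1, Fosb, Cd28 and Cd4. By edgeR 1 of these 20 passed the adjusted test, and by DESeq2 18 did. Jak3, the kinase of the common cytokine receptor chain, had 275.7, 279.7 and 257.3 CPM in cKO and 203.3, 218 and 190 CPM in WT (log2 fold change 0.41 ± 0.08, edgeR adjusted p = 0.247 and DESeq2 adjusted p = 0.00281). E2f2, a cell cycle transcription factor, had 14.1, 15.5 and 15.6 CPM in cKO and 6.4, 10 and 11.4 CPM in WT. Vars2, the mitochondrial valyl-tRNA synthetase, had 57.6, 64.8 and 56.5 CPM in cKO and 46, 44.6 and 47.6 CPM in WT. Among the lower ones Creb1, a cAMP-responsive transcription factor, had 133.1, 123.5 and 138.7 CPM in cKO and 156.8, 165.7 and 161.9 CPM in WT (-0.29 ± 0.06, edgeR adjusted p = 0.247 and DESeq2 adjusted p = 0.0224). Slc30a1, a zinc exporter, had 20.7, 19.4 and 17.5 CPM in cKO and 31.2, 24.4 and 28.6 CPM in WT. Dcun1d1, which promotes cullin neddylation, had 40.3, 40.3 and 40.8 CPM in cKO and 51.6, 50.2 and 48.3 CPM in WT.

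The library labelled cKO replicate 1 took no part in calling these 19 genes. On the log2 scale it lay nearer the mean of cKO replicates 2 and 3 in 4 of the 19 (Ckap2, Socs3, Galk1 and Dclk2) and nearer the WT mean in the other 15. Trmt61a, whose level set this library aside, is one of the 15, and without it the counts were 4 and 14 of 18. The library lay nearer cKO replicates 2 and 3 in 45.7 percent of the 1515 genes with an unadjusted p under 0.05 without it, and in 49.3 percent of all 12404 tested genes. With the library put back among cKO, 16 of the 19 had an unadjusted p under 0.05 in the same direction and 10 of the 19 showed no overlap between groups. The other cKO and WT libraries in that fit had made the call, so these counts were largely set in advance. Over all tested genes 4.3 percent were higher and 5.08 percent lower at that threshold, and 7.32 and 7.35 percent showed no overlap.

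At 48 h the 19 genes were measured in other libraries, although the estimate of spread behind both sets of p-values was shared. These libraries carry the same replicate labels as at 0 h. Whether they came from the same mice is not given, so the 48 h values may not be independent. Slc15a2 ranked the labels alike at both times, with 12.3, 1.1 and 1.3 CPM in cKO and 4.5, 8.8 and 9 CPM in WT at 48 h. Without cKO replicate 1, 13 of the 19 had the same direction at 48 h, and 9 were called in that direction, 4 of the 12 higher and 5 of the 7 lower. At 48 h 9.26 percent of all tested genes were called higher and 8.98 percent lower by the same rule. Trmt61a, Slc15a2, Lgals1, Acsl3 and St8sia4 were lower at both times. Trmt61a, whose level set that label aside, counts among the 13, the 9 and the 5, so its part in them was set in advance. Igfbp4, Dclk2, Gm4951 and Cth were higher at both times, at 0.85, 0.79, 0.81 and 2.38 on the log2 scale at 48 h. Galk1 and Lad1 were called in the opposite direction at 48 h, with log2 fold changes of -0.35 and -0.41. The other 8 were not called, among them Ifi44 at -0.12, Ly6a at 0.02 and Cd28 at 0.03. As labelled, 1 of the 19, Igfbp4, was called at 48 h (edgeR adjusted p = 0.047), when 3.1 percent of all tested genes were called higher and 1.09 percent lower.

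**Figure D3:**
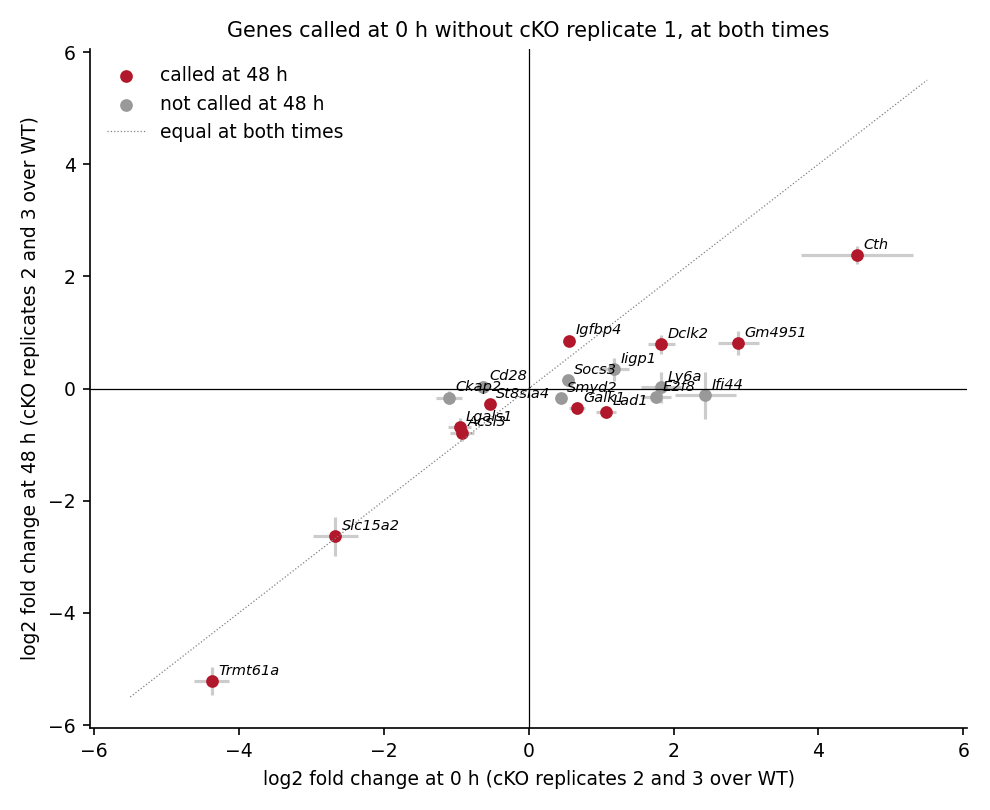
Log2 fold changes of cKO replicates 2 and 3 over WT at 0 h (horizontal) and at 48 h (vertical) for the 19 genes called at 0 h without cKO replicate 1, with standard errors as grey bars. Red points were called at 48 h; Trmt61a and Slc15a2 lie near the dotted line of equal change, and Ifi44, Ly6a and E2f8 lie near 0 at 48 h.

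Type I interferon activates transcription factors that bind the interferon-stimulated response element in the promoters of antiviral genes. Of 45 tested genes of this response, 41 had a positive log2 fold change as labelled, with a median of 0.47 against -0.0004 for all tested genes. By edgeR none was called, 12 were higher at an unadjusted p under 0.05 and 0 lower, and 0 of the 45 had cKO libraries all above WT. Over all tested genes these shares were 4.3 percent higher, 5.08 percent lower and 7.32 percent with cKO libraries all above WT. Without cKO replicate 1 the median was 0.64 against -0.01 for all tested genes. In that fit 1 gene (Ifi44) was called higher (0.0967 percent of all tested genes). Of the 45, 29 were higher at an unadjusted p under 0.05 (5.74 percent of all tested genes). For 21, cKO replicates 2 and 3 lay above all WT libraries (13.5 percent of all tested genes). The mean log2 level of the list relative to the WT mean was -0.10, 0.30 and 1.03 in cKO and -0.29, 0.27 and 0.02 in WT. cKO replicate 3 was thus the highest library, cKO replicate 2 was close to WT replicate 2, and cKO replicate 1 lay within WT.

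The promoters of Oas1a, Ifi44, Ifit3b and Bst2, the 4 list members with the smallest unadjusted p as labelled, are printed to show the element beside the values. Each line gives 250 bases before the start site from RefSeq (GRCm38.p6), and capitals mark matches to GAAANNGAAA or its reverse complement TTTCNNTTTC.
Ifi44, chr3:151749911-151750160, minus strand: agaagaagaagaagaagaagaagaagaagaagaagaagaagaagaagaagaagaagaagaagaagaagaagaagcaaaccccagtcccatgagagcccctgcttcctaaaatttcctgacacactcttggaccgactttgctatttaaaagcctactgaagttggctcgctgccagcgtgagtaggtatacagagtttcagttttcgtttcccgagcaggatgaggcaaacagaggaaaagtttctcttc
Oas1a, chr5:120907526-120907775, minus strand: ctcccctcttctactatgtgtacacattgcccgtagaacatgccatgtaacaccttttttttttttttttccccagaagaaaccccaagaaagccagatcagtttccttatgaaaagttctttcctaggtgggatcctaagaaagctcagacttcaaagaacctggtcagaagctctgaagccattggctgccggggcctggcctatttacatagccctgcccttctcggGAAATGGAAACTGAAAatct
Ifit3b, chr19:34607707-34607956, plus strand: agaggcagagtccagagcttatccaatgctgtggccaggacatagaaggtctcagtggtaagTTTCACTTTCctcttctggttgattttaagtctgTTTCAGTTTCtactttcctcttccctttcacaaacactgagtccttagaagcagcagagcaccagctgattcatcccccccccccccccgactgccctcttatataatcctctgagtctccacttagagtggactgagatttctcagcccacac
Bst2, chr8:71537473-71537722, minus strand: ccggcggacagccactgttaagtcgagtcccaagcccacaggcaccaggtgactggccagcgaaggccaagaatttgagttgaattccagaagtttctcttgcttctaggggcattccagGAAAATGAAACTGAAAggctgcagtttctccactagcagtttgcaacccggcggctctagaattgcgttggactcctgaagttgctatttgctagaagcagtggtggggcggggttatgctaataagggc
The motif was searched on both strands from 250 bases before to 50 after the start, and overlapping matches share one run of capitals. It occurred in 18 of the 35 list members with a promoter in the table (51.4 percent), against 387 of 9936 tested genes (3.89 percent) and 3.99 percent of all genes with a promoter in the table. The Ifi44 window printed holds no match to these letters.

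Oas1a, a sensor of double-stranded RNA, had 10.7, 17.6 and 40.7 CPM in cKO and 8.24, 11.3 and 10.1 CPM in WT (log2 fold change 1.22 ± 0.42 as labelled, edgeR adjusted p = 0.433, and 1.56 ± 0.34 without cKO replicate 1, adjusted p = 0.131). Ifit3b, of the antiviral IFIT family, had 7.39, 14.7 and 42.3 CPM in cKO and 5.14, 11.4 and 5.93 CPM in WT. Bst2, tetherin, which holds budding virus at the cell surface, had 69.5, 83.5 and 123.4 CPM in cKO and 54.7, 75.2 and 64.9 CPM in WT. In each, cKO replicate 3 was the highest library and cKO replicate 1 overlapped WT. Irf7, the factor that amplifies the interferon response, had 105.9, 149.7 and 315.4 CPM in cKO and 81.5, 134.3 and 97 CPM in WT. The 23 targets of interferon gamma and guanylate-binding proteins had a median of 0.06 as labelled. At an unadjusted p under 0.05, 2 were higher and 2 lower (4.3 and 5.08 percent of all tested genes). Without cKO replicate 1, 7 were higher and 1 lower (5.74 and 6.47 percent of all tested genes), with a median of 0.15. In that fit Iigp1 was called higher, against 0.0967 percent of all tested genes. The lower ones as labelled were Irf8 and Ciita, which B cells and other antigen-presenting cells also express, at -0.49 ± 0.18 and -0.54 ± 0.23.

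**Figure D4:**
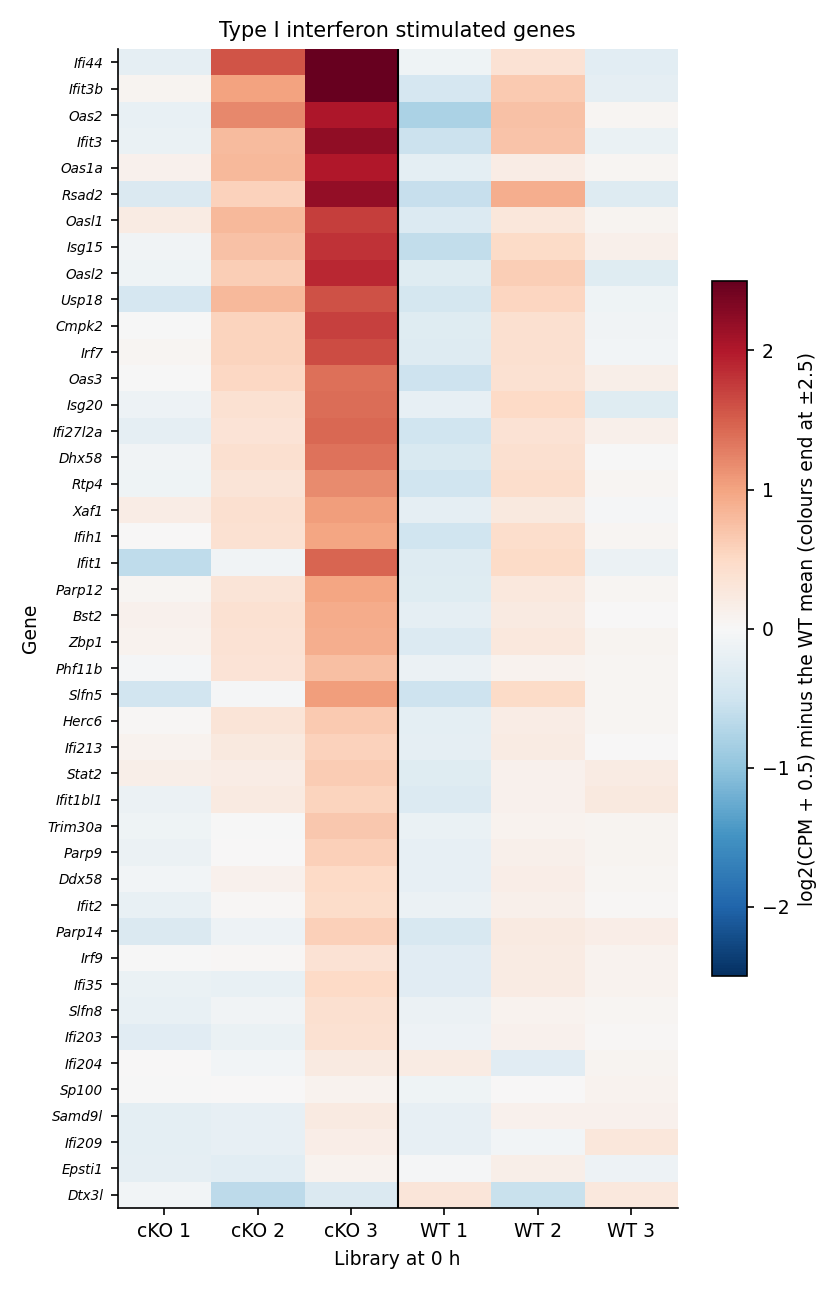
Colour gives the log2(CPM + 0.5) of 44 of the 45 tested type I interferon genes in each 0 h library, minus the WT mean, with the cKO libraries to the left of the line and WT to the right. Red is darkest in cKO replicate 3, whose list mean was 1.03, and the column of cKO replicate 1, at -0.10, looks like the WT columns.

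MHC class I genes, which present peptides to CD8 T cells and are themselves interferon-inducible, showed small positive differences in cKO. Of 17 members, 16 had a positive log2 fold change as labelled, the median was 0.14, 6 had an unadjusted p under 0.05 (4.3 percent of all tested genes) and all cKO libraries lay above WT for 8 (7.32 percent of all tested genes). These counts were 10 and 11 without cKO replicate 1, against 5.74 and 13.5 percent, and the median was 0.19. EdgeR called none in either fit. H2-D1, a classical class I heavy chain, had 3274, 3139 and 3236 CPM in cKO and 2964, 2918 and 2891 CPM in WT (log2 fold change 0.14 ± 0.05, edgeR adjusted p = 0.48). H2-Q4, a nonclassical heavy chain, had 894.6, 883.7 and 942.8 CPM in cKO and 754.3, 807.8 and 669.5 CPM in WT. Tap1, a subunit of the peptide transporter, had 448.8, 462.4 and 506 CPM in cKO and 386.6, 438 and 389.2 CPM in WT. In these 3 genes cKO replicate 1 lay above every WT library. H2-Q7 was highest in cKO replicate 3, with 104.7, 102.7 and 257.5 CPM in cKO and 90.2, 89.5 and 84.9 CPM in WT. Reads of class I genes can be split among near-identical copies, so their single values are uncertain. B2m, the light chain that all of them share, had 2373, 2395 and 2641 CPM in cKO and 2445, 2299 and 2470 CPM in WT.

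Enzymes that modify tRNA at sites other than m1A had small positive differences. Of 68 tested, 55 had a positive log2 fold change as labelled, with a median of 0.07. In that direction 10 had an unadjusted p under 0.05 and 0 in the other (4.3 and 5.08 percent of all tested genes). All cKO libraries lay above WT for 14 and below for 0, against 7.32 and 7.35 percent of all tested genes. With cKO replicate 1 left out, the median was 0.08, and 6 were higher and 0 lower at an unadjusted p under 0.05 (5.74 and 6.47 percent of all tested genes). Groups in that fit did not overlap for 20 higher and 2 lower, against 13.5 and 13.9 percent of all tested genes. EdgeR called none in either fit. Trmt112, a cofactor shared by several methyltransferases, had 81.1, 85.5 and 97.4 CPM in cKO and 66.1, 72.1 and 68 CPM in WT (log2 fold change 0.36 ± 0.09, edgeR adjusted p = 0.29). Mettl1, which makes 7-methylguanosine, had 26.5, 26 and 26.5 CPM in cKO and 23.1, 23.8 and 19.9 CPM in WT. Mto1, which modifies mitochondrial tRNA wobble positions, had 28.4, 28.3 and 30.9 CPM in cKO and 25.5, 26.4 and 17.9 CPM in WT. The list mean relative to WT was 0.09, 0.08 and 0.08 in cKO and 0.02, 0.01 and -0.03 in WT, so cKO replicate 1 stood with the other cKO libraries. Cytosolic aminoacyl-tRNA synthetases, which charge tRNAs, had a median of 0.08 over 24 genes, with 20 of 24 positive and 2 higher at an unadjusted p under 0.05. The median was 0.11 and 6 were higher without cKO replicate 1. Mars1, the methionyl enzyme, had 83.1, 90.1 and 76.7 CPM in cKO and 71.1, 72.3 and 70.3 CPM in WT. Ribosomal protein genes had a median of -0.01 over 80 genes, and initiation and elongation factors a median of 0.01 over 43, or -0.02 and 0.02 without cKO replicate 1.

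Cholesterol synthesis genes, named in the title of the series, mostly had negative differences at 0 h, and edgeR called none in either fit. Of 22 genes of the pathway, 18 had a negative log2 fold change as labelled, the median was -0.11 and 0 had an unadjusted p under 0.05. Without cKO replicate 1 the median was -0.16, with 19 of the 22 negative. In that fit 5 were lower and 0 higher at an unadjusted p under 0.05 (6.47 and 5.74 percent of all tested genes). Hmgcs1, which starts the mevalonate arm, had 38.8, 35.2 and 34.8 CPM in cKO and 39, 42.3 and 51.5 CPM in WT. Lss, which closes the sterol rings, had 16.7, 14.9 and 14.6 CPM in cKO and 18.1, 18.7 and 20.6 CPM in WT. Its log2 fold change was -0.38 ± 0.09 without cKO replicate 1 (edgeR adjusted p = 0.154). Cyp51, a lanosterol demethylase, had 13.5, 8.25 and 6.57 CPM in cKO and 11.2, 10.5 and 19.9 CPM in WT. Its log2 fold change was -0.90 ± 0.23 without cKO replicate 1 (edgeR adjusted p = 0.158). WT replicate 3 was the highest of the WT libraries for all 3 genes, and the list mean relative to WT was 0.00, -0.12 and -0.22 in cKO and -0.10, -0.16 and 0.26 in WT. Acly, which supplies cytosolic acetyl-CoA, had 309.6, 285.5 and 344 CPM in cKO and 295.1, 307.4 and 306.8 CPM in WT. Srebf1, a transcription factor of lipid synthesis genes, had 169.5, 163.9 and 152.4 CPM in cKO and 130.3, 142.1 and 147.1 CPM in WT. Its log2 fold change was 0.21 ± 0.08 (edgeR adjusted p = 0.445). Scd1, a fatty acid desaturase, had 10.3, 10.4 and 10.6 CPM in cKO and 17.6, 12.5 and 23 CPM in WT (-0.77 ± 0.30, edgeR adjusted p = 0.47).

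Sugar metabolism genes gave one of the highest medians among the pathway annotations of the deposited table with at least 15 tested genes. Galactose metabolism had a median of 0.18 over 23 tested genes as labelled. At an unadjusted p under 0.05, 7 were higher and 1 lower (4.3 and 5.08 percent of all tested genes). The median was 0.17 without cKO replicate 1, with 7 higher and 0 lower (5.74 and 6.47 percent of all tested genes). In that fit Galk1 was called, against 0.0967 percent of all tested genes called higher. Besides Galk1 the higher ones included Hk2, a hexokinase that phosphorylates glucose. Hk2 had 3.41, 3.81 and 3.64 CPM in cKO and 2.78, 2.06 and 1.68 CPM in WT. Galt, which follows galactokinase in the pathway, had 27.9, 29.9 and 28.1 CPM in cKO and 24.2, 23.2 and 24.5 CPM in WT. Pgm1, phosphoglucomutase, had 45.7, 46.8 and 40.1 CPM in cKO and 38.4, 39.2 and 32.4 CPM in WT. For Galk1, Hk2, Galt and Pgm1 all cKO libraries lay above WT, and as labelled edgeR called none of the 4, while DESeq2 called Galk1 (adjusted p = 0.000766) and Hk2 (adjusted p = 0.0179). Glycolysis genes had a median of 0.06 over 21, with 1 higher at an unadjusted p under 0.05, and 0.05 with 2 higher without cKO replicate 1.

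Among T cell state lists, naive and memory genes had a median of -0.004 over 32, with 4 higher and 2 lower at an unadjusted p under 0.05 as labelled. Leaving out cKO replicate 1 gave a median of -0.01, with 4 higher and 2 lower. In that fit edgeR called Igfbp4 and Socs3 higher and Cd28 lower (0.0967 and 0.0564 percent of all tested genes). Ly6c2, a surface antigen of memory and interferon-exposed cells, had 143.1, 268.9 and 441.4 CPM in cKO and 124.8, 189.1 and 104.3 CPM in WT. Effector genes had a median of -0.17 over 29, with 1 higher and 6 lower at an unadjusted p under 0.05. Of the 29, 0 had groups that did not overlap (7.32 percent of all tested genes higher and 7.35 percent lower). The median was -0.24 without cKO replicate 1, with 1 higher and 6 lower. Over all tested genes the shares higher and lower at an unadjusted p under 0.05 were 4.3 and 5.08 percent as labelled. Without cKO replicate 1 they were 5.74 and 6.47 percent. The medians as labelled and without cKO replicate 1 were -0.17 and -0.16 for 22 virtual memory genes, -0.18 and -0.06 for 13 inhibitory receptors, and -0.11 and -0.14 for 27 activation genes, and edgeR called none of the members of these lists. Ccl3, an inflammatory chemokine, had 1.32, 0.692 and 0.358 CPM in cKO and 3.65, 1.16 and 2.8 CPM in WT, and WT replicate 2 fell within the cKO range. Klrk1, the receptor NKG2D, had 2.15, 1.73 and 1.14 CPM in cKO and 6.37, 1.61 and 4.53 CPM in WT, with the same overlap. Mki67, the proliferation marker, had 10.1, 16.5 and 11.6 CPM in cKO and 12.9, 13.7 and 11.3 CPM in WT.

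Stress and early response genes varied between libraries of both groups. Fosb, an AP-1 subunit, had 85.9, 94 and 54.4 CPM in cKO and 44.8, 16.8 and 18.4 CPM in WT. All cKO libraries were above WT, but the log2 fold change of 1.55 ± 0.33 did not pass (edgeR adjusted p = 0.247). Fos overlapped, with 859.9, 614.5 and 382.3 CPM in cKO and 646.1, 255.2 and 239 CPM in WT. Targets of p53 had a median of -0.15 over 23 genes, with 0 higher and 4 lower at an unadjusted p under 0.05, and -0.18 with 1 higher and 4 lower without cKO replicate 1. One of the 4, Ccng1, cyclin G1, had 99.1, 98.8 and 112.7 CPM in cKO and 116.2, 113.5 and 159 CPM in WT. The integrated stress response list had a median of 0.14 over 28 genes, with 0 higher and 1 lower at an unadjusted p under 0.05. Leaving out cKO replicate 1 gave a median of 0.13, with 4 higher and 3 lower. In that fit Cth was called higher, against 0.0967 percent of all tested genes. Over all tested genes, 4.3 percent were higher and 5.08 percent lower at that threshold as labelled, and 5.74 and 6.47 percent without cKO replicate 1.

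**Figure D5:**
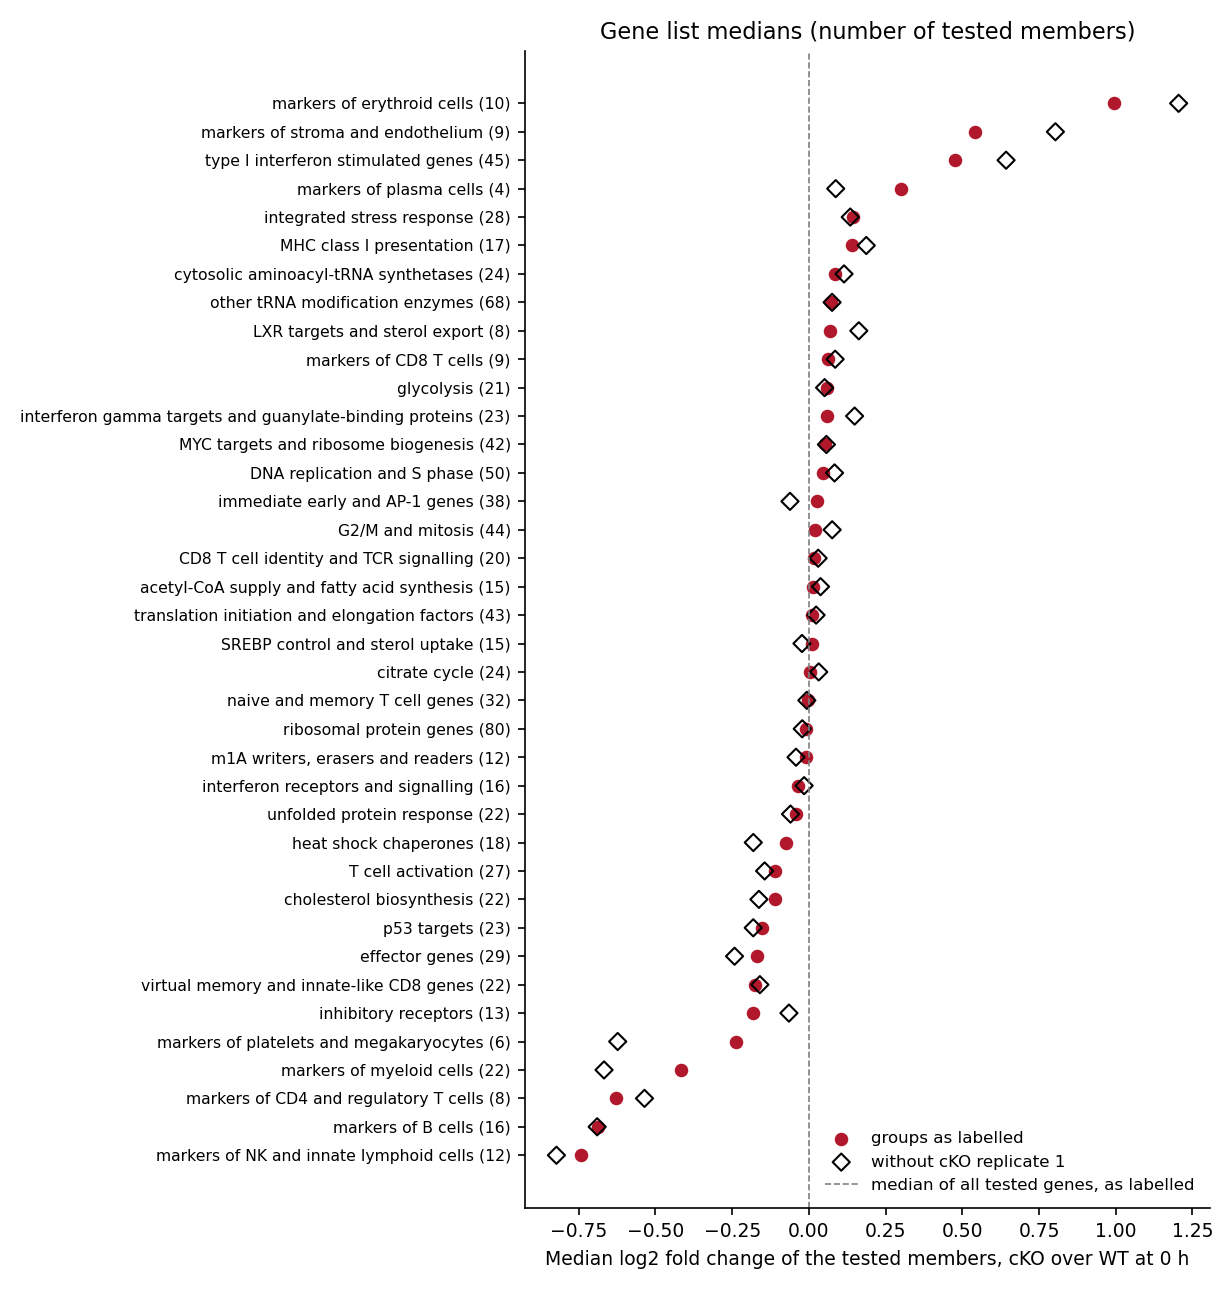
Median log2 fold change of cKO over WT at 0 h for each gene list except the Y-linked and pancreatic lists, with the number of tested members in brackets. Red points show the groups as labelled and open diamonds the fit without cKO replicate 1. The dashed line is the median of all tested genes as labelled. Among the lists drawn, marker lists of other cell types form both ends, from -0.74 for NK and innate lymphoid cells to 0.99 for erythroid cells. The type I interferon list lies at 0.47.

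Transcripts of other cell types differed between the libraries in the same comparison, and their part in the results above was not tested. B cell markers summed to 179.8, 191.3 and 163.7 CPM over 16 genes in cKO and 237.3, 191.1 and 317.2 CPM in WT, so WT replicate 2 lay level with cKO replicate 2. All 16 had a negative log2 fold change as labelled, 6 had an unadjusted p under 0.05 and edgeR called none. Of the 16, 15 were negative and 5 had an unadjusted p under 0.05 without cKO replicate 1. At that threshold 5.08 percent of all tested genes were lower as labelled, and 6.47 percent without cKO replicate 1. Pax5, the B cell identity factor, had 11.2, 9.98 and 10.5 CPM in cKO and 18, 15.5 and 24.1 CPM in WT. Markers of CD4 and regulatory T cells summed to 47.4, 51.4 and 50.2 CPM over 8 genes in cKO and 83.5, 59.1 and 77.1 CPM in WT, and every cKO library was below every WT library. Cd4 itself had 14.5, 15.1 and 17 CPM in cKO and 28.7, 20 and 25.7 CPM in WT (log2 fold change -0.67 ± 0.15, edgeR adjusted p = 0.247 and DESeq2 adjusted p = 0.0179). Of the 8, 4 were lower at an unadjusted p under 0.05 as labelled and 2 without cKO replicate 1. Erythroid markers summed to 57.6, 118.9 and 71.9 CPM in cKO and 15.5, 103.3 and 9.75 CPM in WT, with WT replicate 2 among the cKO libraries. Summed levels overlapped for other lists. Myeloid markers summed to 48.9 to 89.1 CPM in cKO and 67 to 93.8 CPM in WT. NK and innate lymphoid markers summed to 147.7 to 166.4 and 157 to 170.7 CPM, and stromal markers to 188.4 to 199.9 and 174.2 to 197.8 CPM. Their single members mostly shared a direction. As labelled, 17 of 22 myeloid and 10 of 12 NK and innate lymphoid markers were negative, and 8 of 9 stromal markers positive. Their median log2 fold changes were -0.42, -0.74 and 0.54. Without cKO replicate 1 these medians were -0.67, -0.82 and 0.80, and edgeR called no member in either fit. No gene of these lists was at 0 in all 6 libraries. In bulk RNA fewer cells of a type and less RNA per cell cannot be told apart.

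The lowest pathway annotations held genes of such cells. Among annotations with at least 15 tested genes, Asthma had the lowest median, -0.48 over 16. Of these 16, 5 had an unadjusted p under 0.05, all lower, against 5.08 percent of all tested genes lower and 4.3 percent higher. The median was -0.55 without cKO replicate 1, with 6 lower and 1 higher (6.47 and 5.74 percent of all tested genes). All 5 as labelled were MHC class II chains or their peptide-loading partners (H2-Aa, H2-Ab1, H2-Eb1, H2-DMb2 and H2-Ob), with H2-Aa at 50.6, 49.3 and 40.7 CPM in cKO and 86.6, 43.5 and 74 CPM in WT. The B cell receptor signaling pathway had a median of -0.11 over 62 genes, with 12 lower and 2 higher at an unadjusted p under 0.05, and -0.08 with 11 lower and 3 higher without cKO replicate 1. Steroid biosynthesis had a median of -0.13 over 19 genes, and -0.19 without cKO replicate 1, among them Cel, a pancreatic lipase. As labelled, the median of 278 of the 296 annotations with at least 15 tested genes lay within 0.1 of 0 on the log2 scale. Without cKO replicate 1 this held for 263 of the 296. None of the 314 annotations with at least 10 tested genes held a gene that edgeR called as labelled. In 38 there was a called gene without cKO replicate 1, when 0.0967 percent of all tested genes were called higher and 0.0564 percent lower.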

How the data were processed

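Per the labels' protocols, TRIzol gave the total RNA and a NEBNext Ultra kit the libraries. The submitters' processing notes name HISAT2 2.1.0, HTSeq 0.11.2, fastp 0.20.1, SAMtools 1.9 and FastQC 0.11.9, and the build GRCm39; the strand setting is not given in the sources used here, so overlapping and antisense genes cannot be told apart. The authors deposited raw read counts for 16352 genes. Genes passing filterByExpr (minimum count 10, total 15) numbered 12404. Counts were fitted with edgeR 4.0.16 (TMM, quasi-likelihood, 1 mean per group, 12 libraries), and a gene was called at a Benjamini-Hochberg adjusted p under 0.05. Standard errors follow from the F statistic. A second fit left out both libraries labelled cKO replicate 1. Libraries held 34341847 to 40270659 counts, and intervals on counts cover counting error only. DESeq2 1.42.0, limma-voom (limma 3.58.1), other scalings and filters, a replicate block and leaving out libraries were alternatives. Named genes are 16 fixed genes, all called genes, the 10 smallest p in each direction at 5 CPM or more, up to 4 members of each described list by unadjusted p and the neighbours of Trmt61a; others were chosen after their values were seen. The members, lists and tests were chosen with earlier results of these data known. Some genes are not reported here. Scripts were tested on simulated data.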

Additional observations from a re-analysis of the deposited data

Results flagged for a closer look

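Galk1, galactokinase, was flagged because its difference between cKO and WT was not the same at the 2 times. The change of the log2 difference from 0 h to 48 h was -0.89 by the interaction term (edgeR adjusted p = 0.0401, groups as labelled). At 0 h it had 25.8, 32.6 and 28.3 CPM in cKO and 18.2, 21.9 and 17.5 CPM in WT. At 48 h it had 143.2, 116.9 and 140.2 CPM in cKO and 164.1, 162 and 164.2 CPM in WT. At 0 h the log2 fold change was 0.59 ± 0.11, with an edgeR adjusted p of 0.193. At 48 h it was -0.29 ± 0.10, with an adjusted p of 0.118. The 3 cKO libraries lay above every WT library at 0 h and below every one at 48 h.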

How the results depend on the processing

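The number of genes called depended on the tool and on single libraries. With the groups as labelled edgeR called 1 gene higher and 0 lower, with 533 and 630 at an unadjusted p under 0.05. DESeq2 called 22 and 18, no filter on low counts 4 and 2, limma-voom and the 0 h libraries alone 0 and 0 (1164 and 1139 genes in both directions together had an unadjusted p under 0.05). Leaving out both libraries labelled cKO replicate 1 gave 12 and 7, and leaving out both of WT replicate 3 gave 0 and 0 (694 at an unadjusted p under 0.05). Leaving out 1 library at a time gave 0 to 4 higher and 0 to 5 lower: 4 and 0 without cKO replicate 1 at 0 h, 3 and 0 without WT replicate 1, 2 and 5 without WT replicate 2, and 0 and 0 without cKO replicate 2, cKO replicate 3 or WT replicate 3. RLE and upper-quartile scaling and a filter at 1 CPM gave 1 and 0. Dclk2 was also lost with limma-voom (adjusted p = 0.237), with the 0 h libraries alone (adjusted p = 0.0744) and without both libraries of WT replicate 3 (adjusted p = 0.296). Over 119 named genes and 16 settings, 50 of 1902 values gained a call, 6 lost one, 36 changed sign without being called at either setting and 0 reversed a call. Of 624 list medians under these settings, 26 moved by more than the spread between libraries. The cause of these changes was not tested.

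At 0 h the replicate numbers of the sample titles did not pair cKO with WT libraries: the deviations of same-numbered libraries correlated at -0.05, 0.05 and -0.12. The deposited counts number the WT libraries otherwise. The main fit and the interaction term treated the 0 h and 48 h libraries of a label as separate, and pairing across time was not tested. With the replicate block edgeR called 1 gene higher and 0 lower, with 1205 at an unadjusted p under 0.05. Counting error limits genes at a few counts, such as Cth. The library labelled cKO replicate 1 lay nearer cKO replicates 2 and 3 in 4 of the 19 genes with a prior count of 2 and also with one of 0.5, an alternative chosen after seeing the data.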
